A study of Mus musculus with 8 samples.

Results

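Astrocytes, oligodendrocytes, microglia and tanycytes are the main non-neuronal cells of the mediobasal hypothalamus, and 32 genes that mark them were followed here through neurons cut out of 3 of its nuclei. The members are 10 astrocyte, 9 oligodendrocyte, 10 microglia and 3 tanycyte markers, found as the gene names of non-control spots on a one-colour Agilent mouse array. All 32 had a probe, out of 34836 gene names on the array, and 29 of them passed the filter on dim probes and were among the 27434 genes tested. The members were picked for the cell type each marks.

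The material was pooled neurons carrying the ZsGreen fluorescent reporter, collected by laser from the arcuate nucleus (Arc, 2 arrays), the ventromedial hypothalamus (VMH, 3 arrays) and the dorsomedial hypothalamus (DMH, 3 arrays). All mice were females of 2 months that carried Nkx2-1-CreERT2, a tamoxifen-dependent Cre recombinase under control of Nkx2-1, and the Rosa-ZsGreen reporter, and had been injected with tamoxifen. The 3 groups thus share genotype, sex, age and treatment and differ in the nucleus cut. The marked cells are those in which the Cre was active at the time of tamoxifen, the cells of a sample were pooled, and no label ties a sample to an animal. Where samples of 1 nucleus came from the same animal the p-values are too small, and whether animals were shared within or between nuclei is not known here. Each p-value reflects only how far these samples lie apart.

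Astrocytes take up glutamate through the transporters encoded by Slc1a2 and Slc1a3 and are coupled to each other through gap junctions built of connexins such as Gjb6 and Gja1. Oligodendrocytes wrap axons in myelin, whose proteins include those encoded by Mbp, Mog, Mobp and Mag. Microglia are the resident macrophages of the brain, survive on signals through the receptor Csf1r and make the complement protein C1q from C1qa, C1qb and C1qc. Tanycytes line the floor and lower walls of the third ventricle beside the Arc and VMH, send long processes into the tissue and hold the intermediate filament proteins vimentin (Vim) and nestin (Nes).

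Of the 29 tested members, 22 were well above background on all 8 arrays and 7 on some of them. Gja1 was well above background on 1 array (DMH replicate 1), and Ugt8a, which makes a myelin galactolipid, and Opalin, a membrane protein of oligodendrocytes, on 0 arrays. Unless given over all tested genes, counts and medians of a list are given below only over genes well above background on all 8 arrays. Such genes were 8 astrocyte, 5 oligodendrocyte, 8 microglia and 1 tanycyte member, and 24048 genes in all. The reason is that a gene that passed the filter through 1 nucleus had to be high there. Signal of all 4 kinds of marker was present in the cut material on all 8 arrays, for tanycytes through Col23a1 alone, but not that of every defining marker. Whether it came from glia cut along with the neurons was not tested.

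Signal is given as log2 of the processed spot intensity minus the 75th percentile of the same array, so 0 is that percentile and a difference of 1 is a 2-fold difference. Levels of different genes are not set against each other, since each probe has its own response. The 75th percentile lay between 1806 and 3042 intensity units and 72.4% to 78.7% of probes were well above background, and all arrays lay on 1 slide and came from 1 scan. Neuron genes known for each nucleus were counted where they were well above background on all arrays, each nucleus against the other nuclei. Called higher were 6 of 6 Arc genes in Arc, 3 of 3 VMH genes in VMH and 1 of 1 DMH gene in DMH. Over all 24048 genes so measured, 105, 273 and 160 were called in either direction in these comparisons. The lists were chosen with earlier results of these data known, so these calls are no test of the labels. Signal of 14 general neuron genes averaged 3.49 to 3.52 on the VMH arrays, 2.85 to 2.87 on the Arc arrays and 2.84 to 3.01 on the DMH arrays. Their medians overlapped between VMH (2.78 to 2.90) and DMH (2.74 to 2.92), and were 2.33 and 2.46 in Arc. Of those genes the neurofilament genes Nefl and Nefm rose in VMH over DMH (adjusted p = 0.0157 and 0.0312, limma). The synaptic vesicle gene Syt1 was lower in Arc than in VMH (adjusted p = 0.0151, limma), with means of 1.55 in Arc, 3.05 in VMH and 3.00 in DMH. In all, 2 of the 14 were called higher in VMH than in Arc and 1 in DMH than in Arc. The calls named for Nefl, Nefm and Syt1 were lost in 5, 7 and 6 of 21 alternative settings, in that order.

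Among the 29 tested members, Gjb6 rose and Col23a1 fell in DMH relative to the mean of Arc and VMH, and no other member passed an adjusted p of 0.05 (limma, Benjamini-Hochberg over all genes tested) in any of 6 comparisons. The background in that comparison was 0.842% of 27431 genes called in either direction, 0.368% higher and 0.474% lower in DMH. In the other 5 comparisons 0 members were called by limma: DMH against VMH, where 1.23% of all genes were called, DMH against Arc (0.419%), VMH against Arc (0.977%), VMH against the other nuclei (1.34%) and Arc against the other nuclei (0.612%). Unadjusted p-values under 0.05 (limma) were counted over the members well above background on all 8 arrays. The counts follow in the same order, with DMH against the mean of the others last. Of 8 astrocyte members they were 2, 4, 0, 0, 1 and 4. Of 5 oligodendrocyte members they were 0, 1, 1, 0, 1 and 0. Of 8 microglia members they were 2, 3, 2, 2, 2 and 4. For the 1 tanycyte member they were 1, 1, 0, 0, 1 and 1. Over all 24048 genes so measured they were 3053, 3816, 3138, 2925, 3546 and 3769. In bulk samples such as these, fewer cells of a type and less RNA per cell cannot be told apart.

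**Figure D1:**
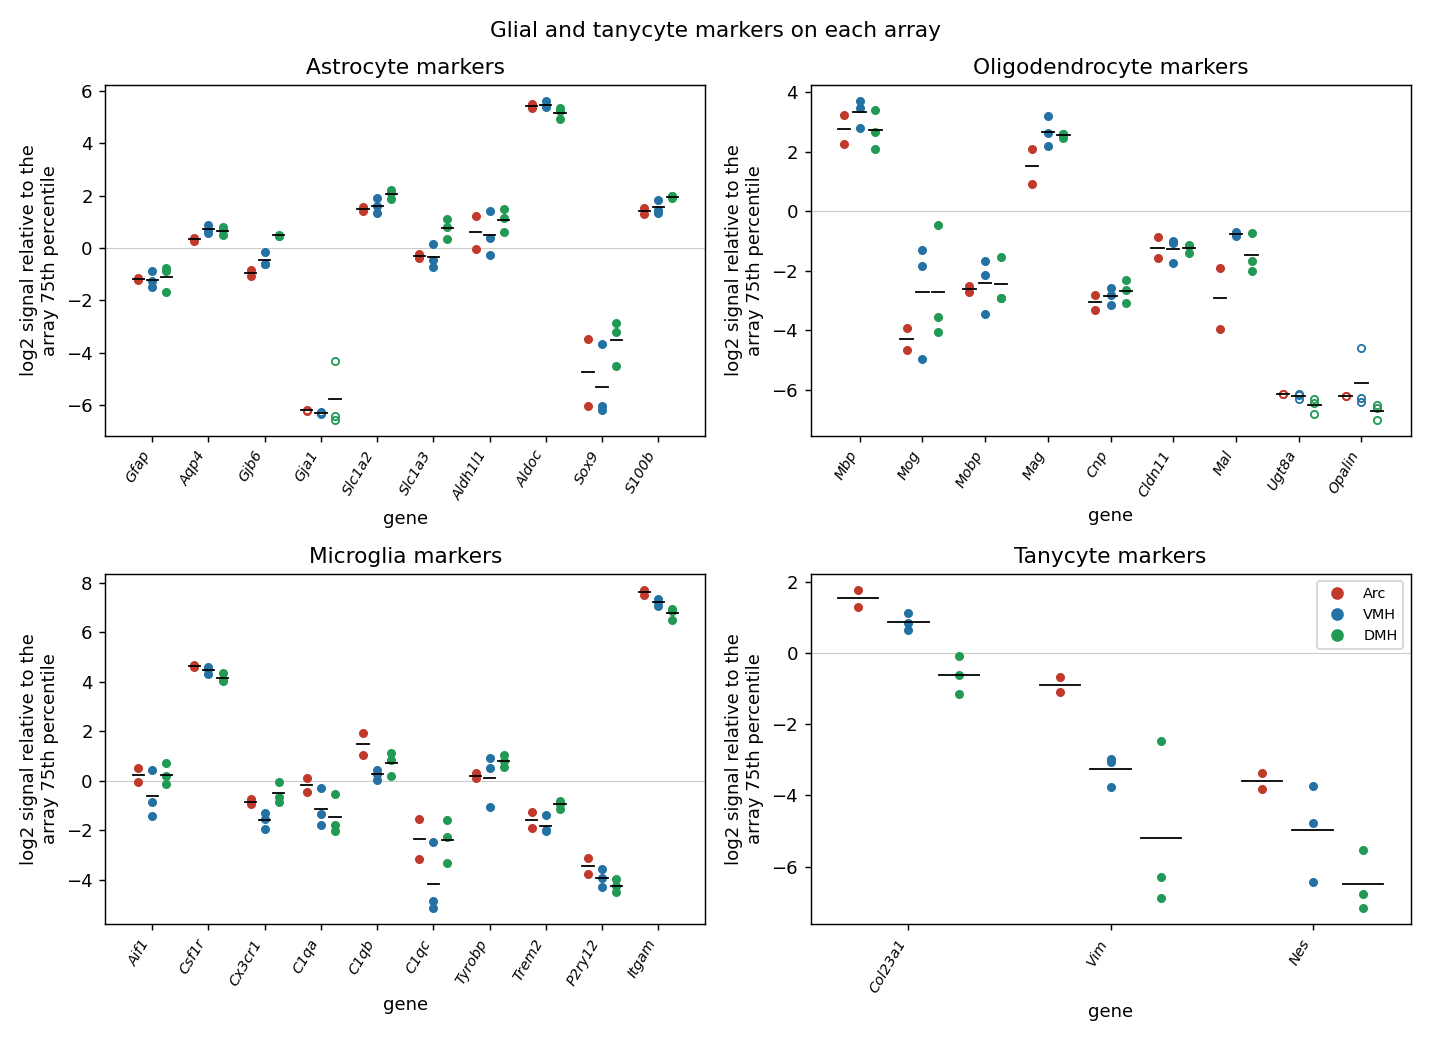
Log2 signal relative to the array's 75th percentile (y axis) of the 32 markers (x axis) by cell type; each point is 1 array, each bar the mean of a nucleus, and open points are genes that did not pass the filter on dim probes. Gjb6 lies at 0.47 to 0.50 in DMH and below 0 on all Arc and VMH arrays, and Col23a1 lies below 0 in DMH and above 0 elsewhere.

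Among the astrocyte markers well above background on all arrays, 7 of 8 had a higher mean in DMH relative to Arc and VMH together, 1 of them past the test. Their median difference was 0.49, and the median over all genes so measured was -0.05, with 44.1% of genes above 0. Gjb6, a connexin of astrocyte gap junctions, had signals of -0.85 and -1.06 in Arc, of -0.61, -0.63 and -0.15 in VMH and of 0.50, 0.47 and 0.47 in DMH. Every DMH array was thus above every Arc and VMH array. Gjb6 was 2.28-fold higher in DMH relative to the other nuclei (log2 difference 1.19, SE 0.18, 95% interval 0.77 to 1.61, adjusted p = 0.0356, limma). Against Arc alone the difference was 1.43 (adjusted p = 0.0523) and against VMH alone 0.94 (adjusted p = 0.085), neither past the limma test. With 1 array left out in turn, the difference stayed between 1.14 and 1.27 and the call was lost for 7 of 8 arrays, VMH replicate 3 being the exception (adjusted p = 0.0495 to 0.123, limma). With the row of the slide as a block the adjusted p was 0.0869, with a difference of 1.09 within the first row and 1.21 within the second.

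Slc1a3, the glutamate transporter of astrocytes and radial glia, had signals of -0.23 and -0.38 in Arc, of -0.47, -0.74 and 0.16 in VMH and of 1.1, 0.35 and 0.81 in DMH. The DMH arrays lay above all others, the nearest being VMH replicate 3. The difference from the mean of Arc and VMH was 1.09 (SE 0.27, adjusted p = 0.137, limma), which did not pass. S100b, a calcium-binding protein, had signals of 1.52 and 1.31 in Arc, of 1.46, 1.35 and 1.85 in VMH and of 1.99, 1.97 and 1.90 in DMH. Its groups did not overlap either, and the difference of 0.47 (SE 0.18) had an adjusted p of 0.261 in limma.

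Averaged over these 8 astrocyte members, signal was 1.0 and 0.70 in Arc, 0.86, 0.81 and 1.27 in VMH and 1.27, 1.40 and 1.48 in DMH. VMH replicate 3 thus stood level with the lowest DMH array and above the other VMH arrays. Slc1a2, the main glutamate transporter of astrocytes, averaged 1.49 ± 0.12 in Arc (SD, n = 2), 1.61 ± 0.29 in VMH (SD, n = 3) and 2.06 ± 0.17 in DMH (SD, n = 3), and its lowest DMH array (1.87) lay just under VMH replicate 3 (1.89). Aldh1l1, a folate enzyme used as an astrocyte marker, ranged from -0.26 to 1.40 within VMH alone. Sox9, a transcription factor of the astrocyte lineage, was well above background on 1 of 2 Arc, 1 of 3 VMH and 3 of 3 DMH arrays. Its signals were -3.47 and -6.04 in Arc, -6.21, -6.04 and -3.67 in VMH and -2.86, -3.20 and -4.52 in DMH, so the arrays of a nucleus were up to 2.57 apart. Sox9 passed the filter on dim probes through DMH alone, so its place in DMH is no result.

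Not every astrocyte member was highest in DMH. Aldoc, an aldolase of glycolysis, was the 1 astrocyte member with a lower mean in DMH (5.17 ± 0.21, SD, n = 3) than in Arc (5.43 ± 0.12, SD, n = 2) and VMH (5.48 ± 0.13, SD, n = 3). Its 3 DMH arrays lay below the other 5, with a difference of -0.28 from their mean (adjusted p = 0.465, limma). Aqp4, the water channel of astrocyte endfeet, was lowest in Arc (0.39 and 0.26), below its VMH range of 0.58 to 0.89 and its DMH range of 0.50 to 0.80. The filament gene Gfap had nearly equal means of -1.19, -1.21 and -1.11 in Arc, VMH and DMH, with a 95% interval of the DMH difference that reached from -0.51 to 0.70.

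In a further list of 17 astrocyte genes, none passed in the same comparison, 11 of 17 had a positive difference in DMH and the median was 0.16. The gene with the smallest p on that list, the bicarbonate transporter gene Slc4a4, was instead low in VMH, with signals of 0.58 and 0.04 in Arc, of -0.71, -0.31 and -0.43 in VMH and of 0.66, 0.48 and 0.06 in DMH. All 3 VMH arrays lay below the other 5, and the difference of -0.84 (SE 0.22) had an adjusted p of 0.155 in limma.

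Of the 3 tanycyte markers, Col23a1 was measured on all arrays, and Vim and Nes only in part. Col23a1, a transmembrane collagen used as a tanycyte marker, had signals of 1.79 and 1.31 in Arc, of 1.13, 0.84 and 0.65 in VMH and of -0.07, -0.61 and -1.16 in DMH. The 3 nuclei did not overlap, with Arc highest and DMH lowest. Col23a1 was 3.55-fold lower in DMH relative to the other nuclei (log2 difference -1.83, SE 0.28, 95% interval -2.48 to -1.18, adjusted p = 0.0356, limma). Against Arc the difference was -2.17 (adjusted p = 0.0543) and against VMH -1.49 (adjusted p = 0.0804), both just outside the limma threshold. With 1 array left out in turn the difference stayed between -2.10 and -1.55 and no call remained in 8 of 8 cases (adjusted p = 0.0619 to 0.121, limma). With the row of the slide as a block the adjusted p was 0.0858, and the difference was -1.32 within the first row and -2.55 within the second.

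The call for Col23a1 rests on 1 of its 3 kept probes. That brightest probe lies at chr11:51394105-51394164 in mm9. A further probe at chr11:51396885-51396944 had a difference of -0.49 (adjusted p = 0.29 in a limma fit with every kept probe as a feature). The third, which spans chr11:51381425-51382971, had a difference of -0.04 (adjusted p = 0.96). The mean of the 3 probes differed by -0.79 (adjusted p = 0.109, limma). At the second of these probes it was the 2 Arc arrays (0.20 and 0.10) that stood above VMH (-0.78 to -0.40) and DMH (-0.82 to -0.43).

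The promoter sequences of both called genes are shown because these are the members on which the comparison of DMH with the other nuclei turned. They are the 250 bases before the RefSeq start in build GRCm38.p6, each read 5′ to 3′ on the strand of the gene, with every CG dinucleotide in capitals. Gjb6 lies on the minus strand (chr14:57133612-57133861) and Col23a1 on the plus strand (chr11:51289670-51289919).
Gjb6: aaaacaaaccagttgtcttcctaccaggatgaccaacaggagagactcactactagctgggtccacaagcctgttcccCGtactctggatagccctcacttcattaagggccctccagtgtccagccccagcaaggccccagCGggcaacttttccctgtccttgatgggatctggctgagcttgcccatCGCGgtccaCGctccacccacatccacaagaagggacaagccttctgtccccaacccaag
Col23a1: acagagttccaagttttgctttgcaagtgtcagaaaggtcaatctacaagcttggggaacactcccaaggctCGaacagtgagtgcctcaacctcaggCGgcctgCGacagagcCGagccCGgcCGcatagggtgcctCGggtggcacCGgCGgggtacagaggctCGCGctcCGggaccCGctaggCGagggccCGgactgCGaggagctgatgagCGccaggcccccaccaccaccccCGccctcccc
The Col23a1 window held 18 CG dinucleotides and the Gjb6 window 5. The median over 32851 such windows was 6, and 78.3% and 44.4% of windows held fewer than Col23a1 and Gjb6. A difference in such counts is a description of the sequence and was not tied to the signals.

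Vim, an intermediate filament of tanycytes that astrocytes, endothelial and ependymal cells also make, had signals of -1.09 and -0.67 in Arc, of -3.76, -2.97 and -3.07 in VMH and of -6.88, -2.46 and -6.30 in DMH. Both Arc arrays stood above all others, and DMH replicate 2 stood with VMH, away from the other DMH arrays. Vim was well above background on 1 of 3 DMH arrays, that replicate. The fitted difference of DMH from Arc was -4.33 (SE 1.15, adjusted p = 0.148, limma), -3.81 with a floor at the lowest signal well above background and -1.95 with normexp. Without DMH replicate 2 the adjusted p was 0.0108 in limma, and no size is given because Vim was not well above background on the remaining DMH arrays. With each of the other 7 arrays left out in turn, the difference did not pass.

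Nes, a filament of neural progenitors and tanycytes, had signals of -3.37 and -3.83 in Arc, of -4.78, -6.44 and -3.74 in VMH and of -7.18, -6.77 and -5.54 in DMH. It was well above background on 2 of 2 Arc, 1 of 3 VMH and 0 of 3 DMH arrays. The DMH level is thus only bounded, and Nes was at least 3.96-fold lower there than in Arc, taking for DMH the lowest signal that counted as well above background on each array or its own, whichever was higher. The fitted difference had an adjusted p of 0.149 in limma and did not pass. Nes passed the filter on dim probes through Arc alone, so its place in Arc is no result, and 39.4% of all genes tested had their highest mean in Arc and 37.8% their lowest in DMH.

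The wider tanycyte list did not share one order of nuclei. Of 14 genes 10 were tested, and 8 were well above background on all arrays. Of these 8, 5 had a higher mean in DMH than in Arc, with a median of 0.01. Arc had the highest mean in 2 of the 8 (Rax and Dio2), VMH in 5 and DMH in 1. None of the 8 was called in Arc against the other nuclei (limma). Genes of that list that passed did so in both directions. Deptor, an inhibitor of mTOR signalling, fell by 2.13 in DMH relative to VMH (adjusted p = 0.0487, limma), with signals of -1.09, -2.65 and -2.04 in DMH against 0.00, 0.31 and 0.31 in VMH. Gpr50, a receptor related to the melatonin receptors, rose by 1.39 in the same comparison (adjusted p = 0.0228, limma), from -2.51, -2.37 and -2.79 in VMH to -1.39, -1.03 and -1.10 in DMH. Crym, a thyroid hormone binding protein, and Col25a1, a further transmembrane collagen, were higher in VMH than in the mean of Arc and DMH by 1.84 (adjusted p = 0.0298) and 1.60 (adjusted p = 0.0413) in limma. None of these 4 calls held in every alternative setting. That of Deptor was lost in 13 of 21, with differences from -2.55 to -1.03 and an adjusted p up to 0.222 in limma. Those of Gpr50 and Crym were lost in 6 and 8 of 21 (adjusted p up to 0.0893 and 0.122 in limma), with differences from 0.95 to 1.95 and from 1.2 to 2.17. That of Col25a1 was lost in 10 of 21, with differences from 1.0 to 2.16 and an adjusted p up to 0.146 in limma. Leaving out a VMH or DMH array was among the settings that ended each of them.

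Ependymal cells, the ciliated neighbours of tanycytes, were read with 10 genes, of which 7 were tested. Tekt1, a component of ciliary microtubules, had signals of 1.15 and 0.77 in Arc, of 0.05, -0.76 and 1.48 in VMH and of 2.92, 3.78 and 3.98 in DMH. The DMH arrays stood above the other 5, and the difference from VMH was 3.30 (SE 0.55, adjusted p = 0.0389, limma). The call was lost in 10 of 21 alternative settings, each single array left out except VMH replicate 3 among them (difference 2.67 to 3.92, adjusted p up to 0.134, limma). The other 6 tested genes of the list did not pass. Of the 7 tested genes, 6 were well above background on all arrays, Tekt1 among them. Their mean was -0.69 and -0.49 in Arc, -1.19, -1.5 and -0.89 in VMH and -0.21, -0.25 and -0.23 in DMH. The DMH means thus include the high signal of Tekt1. Against Arc, 3 of these 6 had a positive difference in DMH, with a median of 0.04.

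**Figure D2:**
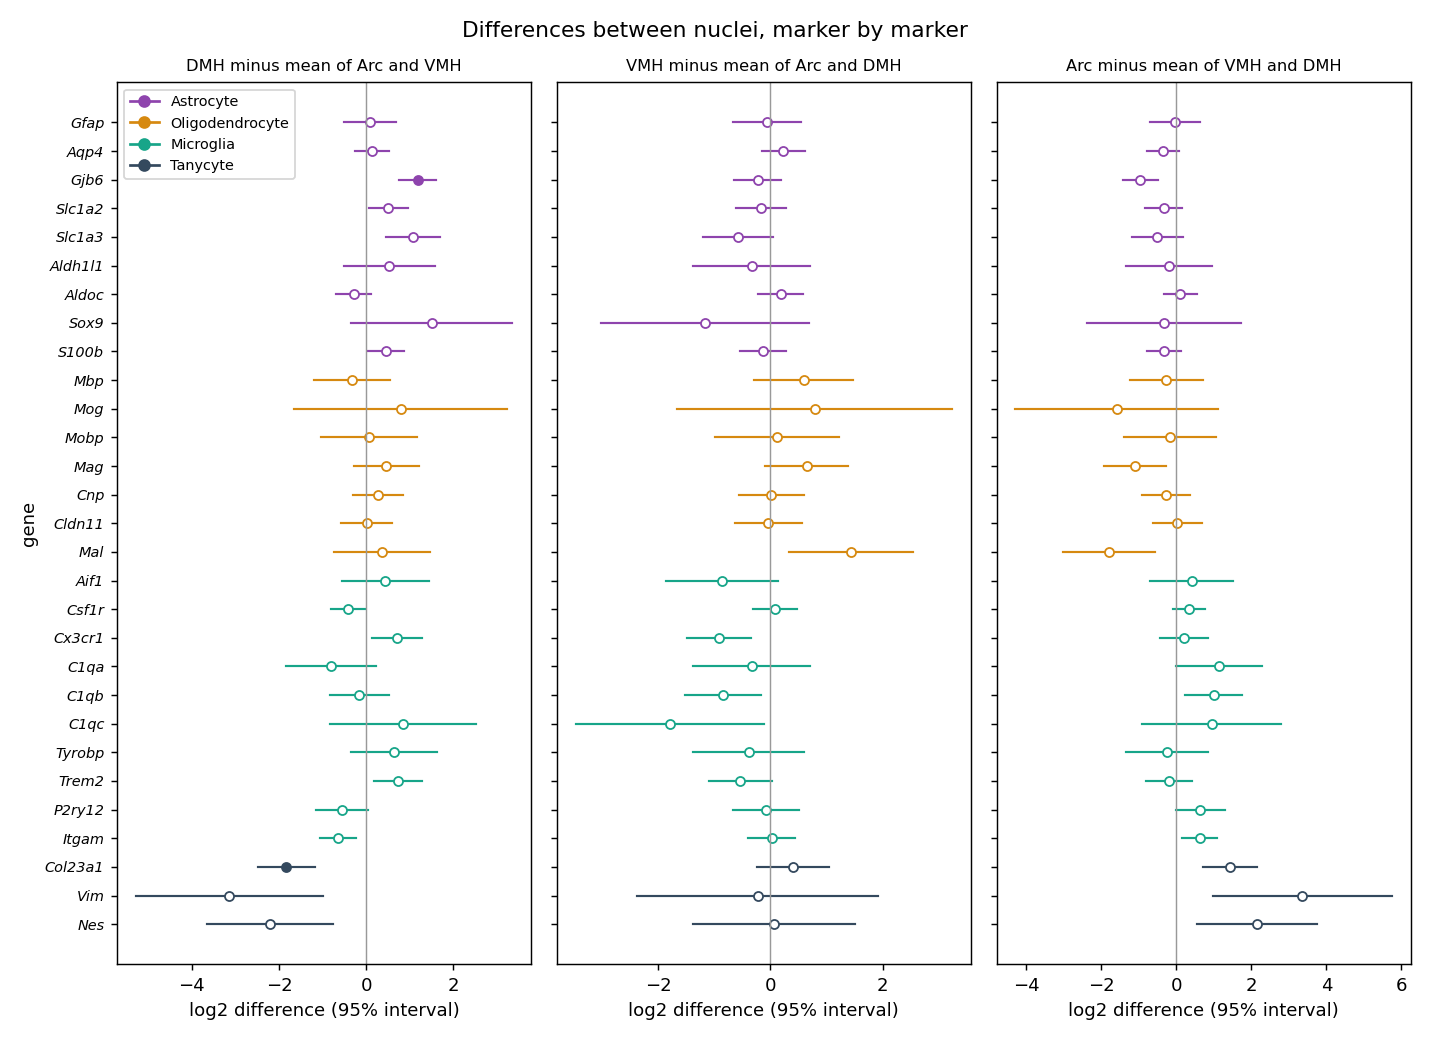
Log2 differences (x axis) of the 29 tested markers (y axis) for each nucleus against the mean of the others; points are fitted differences, lines 95% intervals, filled points passed the limma test and colours give the cell type. The filled points are Gjb6 at 1.19 and Col23a1 at -1.83 in the comparison of DMH, and the other intervals belong to members that did not pass.

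Of the 8 microglia members well above background on all arrays, 8 had a lower mean in VMH than in Arc, with a median difference of -0.57 against -0.02 for all genes so measured, of which 47.6% were positive. None of the 8 passed limma's test (0.977% of all genes tested did), and 2 of 8 had an unadjusted p under 0.05. VMH had the lowest mean of the 3 nuclei in 5 of 8 and DMH in 3 of 8. A further list held 13 microglia genes above background on all arrays, of which 13 had a lower mean in VMH than in Arc, with a median of -0.33 and 0 called (3 at an unadjusted p under 0.05, limma). The median of the 8 members lay between -1.21 and -0.46 under 21 alternatives. The value of -1.21 came with centring on the neuron genes, which moved the median of all genes to -0.67. The mean signal of the general neuron genes was highest on the same VMH arrays, as given above, while their medians overlapped between VMH and DMH. The part of neuron signal in these differences was not tested.

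Cx3cr1, the receptor by which microglia sense the neuronal chemokine fractalkine, had signals of -0.75 and -0.95 in Arc, of -1.30, -1.93 and -1.54 in VMH and of -0.84, -0.04 and -0.64 in DMH. Every VMH array lay below every other array. The difference of DMH from VMH was 1.08 (SE 0.27, adjusted p = 0.136, limma), which did not pass. Its 2 kept probes overlap by all but 5 bases and gave differences of 1.08 and 1.29, so they are not independent measurements.

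C1qb, which encodes a chain of complement C1q, had signals of 1.93 and 1.03 in Arc, of 0.45, 0.04 and 0.28 in VMH and of 0.20, 1.13 and 0.83 in DMH. Both Arc arrays lay above all VMH arrays and DMH overlapped with both. VMH was lower than Arc by a log2 difference of -1.22 (SE 0.37, adjusted p = 0.201, limma). C1qc, its neighbour in the genome, averaged -2.34 ± 1.15 in Arc (SD, n = 2), -4.16 ± 1.47 in VMH (SD, n = 3) and -2.40 ± 0.88 in DMH (SD, n = 3), and it was well above background on 2 of 3 VMH arrays. C1qa differed in that its lowest mean was in DMH (-1.46 ± 0.79, SD, n = 3), with VMH at -1.15 ± 0.76 (SD, n = 3) and Arc at -0.17 ± 0.40 (SD, n = 2). The chains of 1 protein therefore did not share an order of nuclei in these means, and none of their differences passed.

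Of the remaining microglia members, Aif1, an actin-binding protein of macrophages, and Tyrobp and Trem2, an adaptor and its receptor, had their lowest mean in VMH. Trem2 had signals of -1.92 and -1.25 in Arc, of -2.03, -2.0 and -1.40 in VMH and of -0.92, -1.15 and -0.83 in DMH. All 3 DMH arrays lay above the other 5, by a difference from their mean of 0.73 (adjusted p = 0.212, limma). Tyrobp varied most within VMH, where replicate 2 was at -1.07 and the other arrays at 0.90 and 0.50. P2ry12, the ADP receptor of resting microglia, was well above background on 2 of 2 Arc arrays and on 1 of 3 arrays each in VMH and DMH. Its means were -3.45 in Arc, -3.93 in VMH and -4.24 in DMH. P2ry12 passed the filter on dim probes through Arc alone, so its place in Arc is no result.

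Csf1r, C1qa and Itgam had a lower mean in DMH than in VMH, unlike the other 5 microglia members measured on all arrays. Itgam, an integrin chain of macrophages, had signals of 7.72 and 7.51 in Arc, of 7.07, 7.23 and 7.36 in VMH and of 6.51, 6.95 and 6.85 in DMH. The 3 nuclei did not overlap, and DMH was lower than Arc by a log2 difference of -0.84 (SE 0.22, adjusted p = 0.149, limma). The further kept probes of Itgam did not share this order, with differences of DMH from Arc of 0.06 and -0.16. The mean of its probes differed by -0.32, and with quantile normalization the difference of the brightest was -0.28. For Csf1r the brightest probe gave -0.33 in DMH against VMH and the others gave 1.64 and 0.78, with adjusted p-values of 0.52, 0.2 and 0.39 in limma. Its brightest probe was thus highest in Arc and lowest in DMH, whereas both others were lowest in VMH, as were 5 of the 8 microglia members measured on all arrays.

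The promoters of C1qb, C1qc and Trem2 are printed because PU.1, a transcription factor that macrophages and microglia need, binds sites with the core GAGGAA (reverse complement TTCCTC), which is in capitals. The 250 bases before each RefSeq start in GRCm38.p6 are read on the strand of the gene, and lie at the following places: C1qb (chr4:136886201-136886450, minus strand), C1qc (chr4:136892915-136893164, minus strand) and Trem2 (chr17:48346151-48346400, plus strand).
C1qb: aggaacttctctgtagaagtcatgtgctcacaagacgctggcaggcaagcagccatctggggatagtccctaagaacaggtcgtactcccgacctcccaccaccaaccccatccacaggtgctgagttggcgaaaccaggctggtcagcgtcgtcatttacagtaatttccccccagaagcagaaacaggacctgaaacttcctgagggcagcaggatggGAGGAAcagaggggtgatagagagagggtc
C1qc: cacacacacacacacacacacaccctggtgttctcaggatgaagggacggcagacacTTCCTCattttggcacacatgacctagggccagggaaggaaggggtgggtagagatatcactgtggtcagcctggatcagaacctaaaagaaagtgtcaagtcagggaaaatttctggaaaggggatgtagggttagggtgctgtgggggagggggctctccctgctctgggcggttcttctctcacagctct
Trem2: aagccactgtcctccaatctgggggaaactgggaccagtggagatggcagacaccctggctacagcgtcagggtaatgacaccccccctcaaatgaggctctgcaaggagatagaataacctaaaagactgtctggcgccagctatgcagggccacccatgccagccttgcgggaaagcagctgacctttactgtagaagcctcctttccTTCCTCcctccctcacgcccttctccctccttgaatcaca
RefSeq windows were at hand for 26 of 32 members. On either strand GAGGAA was found in 5 of 7 microglia members with a window (Aif1, C1qb, C1qc, Trem2 and Itgam), in 2 of 8 astrocyte, 2 of 8 oligodendrocyte and 1 of 3 tanycyte members. It was found in 23.3% of all 32851 windows, which belong to 27025 genes. A member counted if any of its windows held the letters, and the first listed window of a gene is printed. Shares of windows, here and for the next sequence, are thus not on the same base as the counts of members. The SOX-type sequence AACAAAG (reverse complement CTTTGTT) was found in 2 of 8 oligodendrocyte members, Mobp and Cnp, and in 5.03% of all windows. These matches describe letters in the windows and say nothing about binding in these cells.

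**Figure D3:**
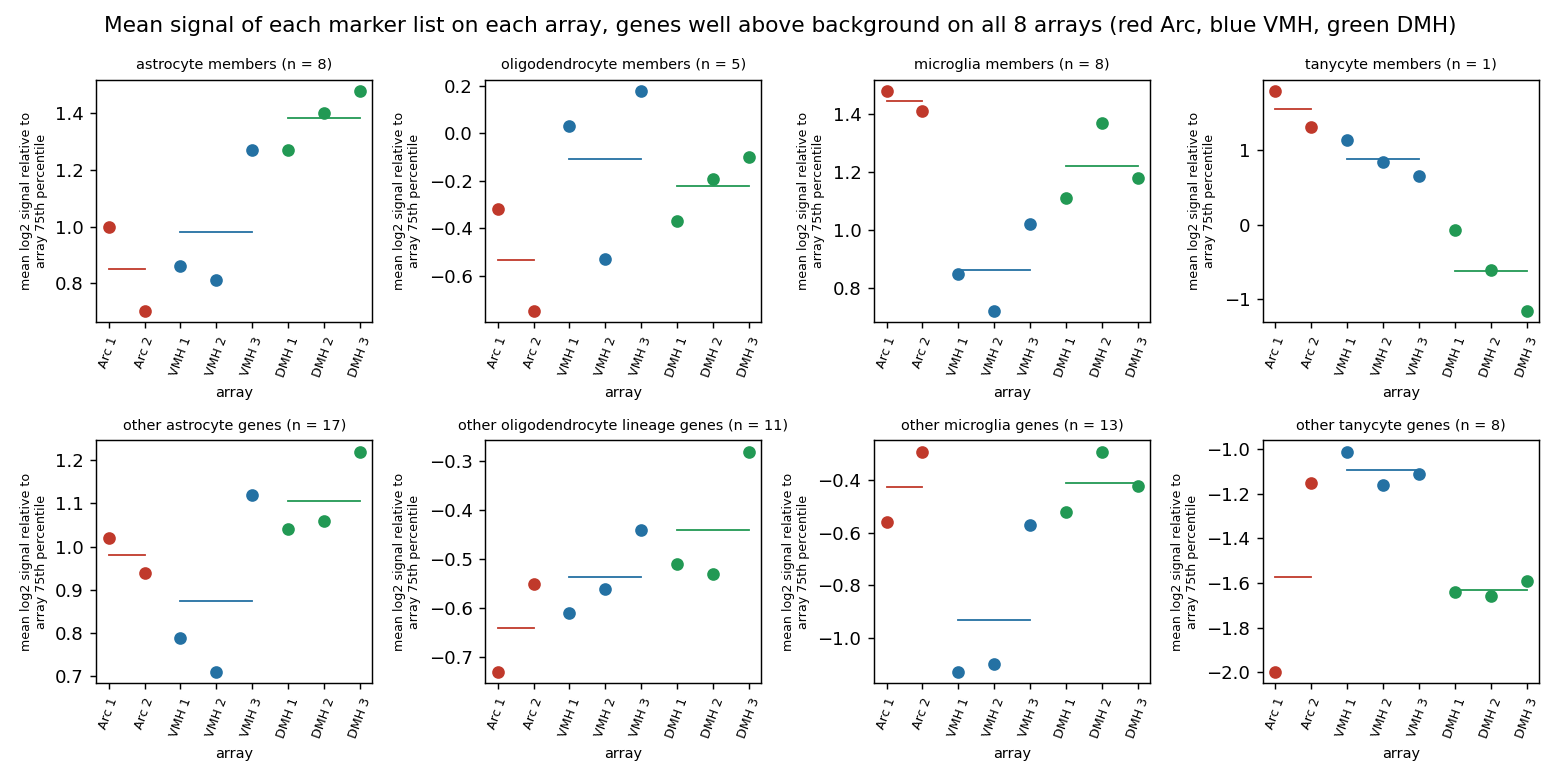
Mean log2 signal relative to the array's 75th percentile (y axis) of the genes of each list that were well above background on all 8 arrays, by array (x axis), members above and the further genes of the same cell type below; lines are means of a nucleus and n is the number of genes. The microglia members lie at 1.48 and 1.41 in Arc and between 0.72 and 1.02 in VMH, and the astrocyte members lie at 1.0 and 0.70 in Arc and between 1.27 and 1.48 in DMH.

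Among the 3 larger groups of members, the oligodendrocyte members were the least even. Their median residual SD, the spread of arrays around the mean of their nucleus, was 0.486 over 5 members, against 0.203 for the astrocyte, 0.388 for the microglia members and 0.328 for all genes. The further lists had another order, with 0.377 over 11 oligodendrocyte lineage genes, 0.353 over 17 astrocyte genes and 0.563 over 13 microglia genes. None of the 7 tested oligodendrocyte members passed in any comparison. Over the 5 members above background on all arrays, Arc had the lowest mean in 3 and VMH the highest in 3. Their median difference of VMH from Arc was 0.21, a sign that turned when the arrays were centred on the neuron genes (-0.44).

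Mal, a myelin membrane protein, had signals of -1.91 and -3.95 in Arc, of -0.85, -0.71 and -0.74 in VMH and of -0.74, -2.02 and -1.68 in DMH. Its VMH arrays lay above both Arc arrays and within 0.14 of each other, while the Arc arrays lay 2.04 apart and Mal was well above background on 1 of them. The difference of VMH from Arc was 2.17 (SE 0.59, adjusted p = 0.166, limma), and 1.15 to 3.19 with 1 array left out, without a call. Mag, a myelin protein facing the axon, had signals of 2.08 and 0.91 in Arc, of 2.62, 2.20 and 3.18 in VMH and of 2.47, 2.59 and 2.58 in DMH. Both Arc arrays lay below the other 6, by a difference from the mean of VMH and DMH of -1.11 (SE 0.36, adjusted p = 0.208, limma). That difference was -1.69 without Arc replicate 1 and -0.52 without Arc replicate 2, and passed in neither case.

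Mbp, the major basic protein of myelin, had signals of 3.22 and 2.26 in Arc, of 2.79, 3.46 and 3.70 in VMH and of 2.10, 3.39 and 2.65 in DMH, so all nuclei overlapped. The difference of VMH from the mean of the others was 0.59 (SE 0.38, adjusted p = 0.575, limma) for its brightest probe and 0.00 and -0.51 for the further probes. Mog, a surface protein of myelin, was well above background on 0 of 2 Arc arrays, on 2 of 3 VMH arrays and on 3 of 3 DMH arrays, with DMH replicate 2 (-0.48) far above the other DMH arrays (-3.56 and -4.07). Arc is thus only bounded and DMH replicate 2 carries the DMH mean, so no fold is given (adjusted p = 0.583, limma). Mog passed the filter on dim probes through DMH alone, so its place in DMH is no result. Mobp, Cnp and the tight junction gene Cldn11 had means within 0.37 of each other over the nuclei.

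In the wider list of the oligodendrocyte lineage, 15 of 16 genes were tested and 0 passed in any comparison. The smallest p belonged to Enpp2, the secreted enzyme autotaxin, which is also made by the choroid plexus. Its signals were -0.61 and 0.22 in Arc, -0.86, -0.28 and -0.85 in VMH and 0.75, 0.35 and 0.80 in DMH. All DMH arrays lay above all others, and the difference of DMH from VMH was 1.30 (SE 0.29, adjusted p = 0.1, limma).

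Counted without a model, the members whose 3 DMH arrays all lay above the other 5 numbered 4 of 29 (Gjb6, Slc1a3, S100b and Trem2), against a background of 3.59% of genes, and 3 of 29 lay below (Aldoc, Itgam and Col23a1), against 5.65%. For VMH 1 of 29 lay below all other arrays (Cx3cr1, background 4.01%) and 0 above (5.46%). For Arc 3 of 29 lay above (Itgam, Col23a1 and Vim, background 10.0%) and 3 below (Aqp4, Gjb6 and Mag, 6.64%). These counts cover all 29 tested members, of which 7 were well above background on some arrays only. The background likewise covers all 27431 genes tested. Of the members named in these counts only Vim was among the 7, well above background on 6 arrays.

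Markers of further cells were read on the same arrays. Of 4 genes of perivascular macrophages, Mrc1, Lyve1 and Pf4 were well above background on 0 arrays, and Cd163 had signals between -3.03 and -2.56 with no separation of nuclei. The 12 endothelial genes well above background on all arrays had means between -0.87 and -0.48, and 0 of all 14 endothelial genes passed. The smallest p there was that of Itm2a, which was lower in Arc (-3.29 and -6.18) than on every VMH and DMH array (-1.51 to -0.32), with an adjusted p of 0.0793 in limma, and it was well above background on 1 of 2 Arc arrays. Among pericyte and smooth muscle genes Tagln was the first by p (DMH against Arc -0.55, adjusted p = 0.227), and Dcn among leptomeningeal genes (DMH against the mean of the others, adjusted p = 0.236, no size given since it was well above background on 0 of 3 DMH arrays), neither past the limma test. Of 4 genes of the pars tuberalis, the pituitary tissue under the Arc, 1 was tested (Cga, difference of -0.11 in DMH).

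**Figure D4:**
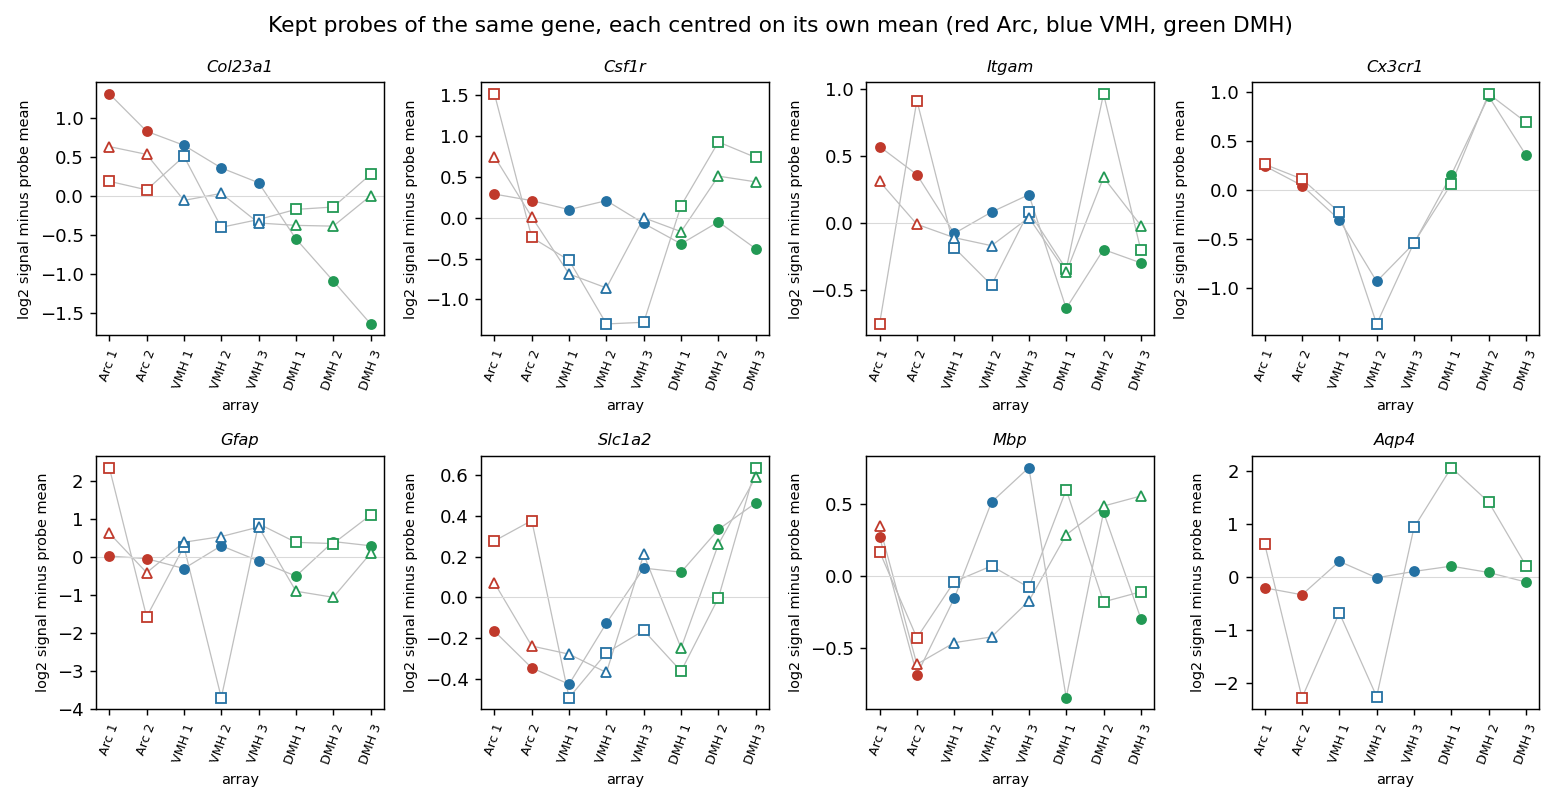
Log2 signal of each kept probe minus that probe's own mean (y axis) on each of the 8 arrays (x axis), for the 8 members with several kept probes; filled points are the brightest probe, which stood for the gene, and open squares and triangles are the others. The 2 probes of Cx3cr1 run together, while the brightest probe of Col23a1 falls to -1.64 below its mean in DMH replicate 3 and the other probes do not.

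Of the 8 members with several kept probes, the further probes of Gfap, Aqp4, Slc1a2 and Mbp also moved apart from the brightest. A second Aqp4 probe, well above background on 5 of 8 arrays, differed by 1.98 in DMH against the mean of the others, where the brightest differed by 0.14. For Slc1a2 the 3 probes gave 0.51, 0.32 and 0.08 in that comparison, all positive. For Gfap they gave 0.09, 0.85 and -0.96. None of the further probes of these 4 genes passed limma's test in that comparison when every kept probe was a feature (adjusted p of at least 0.26).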

How the data were processed

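RNA of laser-cut neurons was hybridised, labelled with Cy5, to 8 one-colour arrays on 1 slide. The values are the red-channel processed spot intensities deposited by the authors, with the background subtracted, per the file headers; the submitters' processing notes name Agilent Feature Extraction 11.5.1.1. No scaling between arrays had been applied. The deposited flags for spots well above background and for outliers were used as given. The authors' series-wide values run in constant steps and were not used.

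Log2 intensity minus each array's 75th percentile over non-control spots was taken, outlier spots were left out and spots of a probe averaged. Probes well above background on all arrays of any nucleus were kept (41491 of 55681), and the brightest kept probe stood for its gene. The means of the nuclei were estimated over all 8 arrays with limma 3.58.1 in R 4.3.3, with 5 residual degrees of freedom, and p-values were adjusted by Benjamini-Hochberg over all genes tested. The model was tested on simulated data. Tables and figures were made with Python 3.11.15, pandas 2.3.3 and matplotlib 3.10.9. Probe positions are those of the array design in mm9, and promoter windows are RefSeq's in GRCm38.p6. The number of arrays limits the precision.

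The members and all gene lists were chosen with earlier results of these data known. Named were the members past the threshold in any comparison, the 3 members of each cell type with the smallest p, and, of each other list, up to 4 genes past the threshold or else the gene with the smallest p. Further members were given by their levels and counts. Replicate numbers in the labels were not taken to pair samples. Alternatives covered the background correction, the scaling, the filter, the probe rule, the model and each array left out.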

Additional observations from a re-analysis of the deposited data

How the results depend on the processing

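All settings below were fitted with limma, and the counts are of members called. In DMH against the mean of Arc and VMH, 2 members were called, Gjb6 and Col23a1. The count was 0 without the filter on dim probes and also when the slide row was a block, and 1 with the mean of the probes of a gene (Gjb6), with centring on the neuron genes (Gjb6) and with the replicate block (Col23a1). With 1 array left out it lay between 0 and 1. Gjb6 passed in 11 of 21 alternatives and Col23a1 in 9 of 21, and neither changed direction.

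In the other comparisons, where 0 were called, DMH against VMH gave 1 (Col23a1) with normexp background correction, with eBayes trend and robust and with array weights, and 6 with centring on the neuron genes. DMH against Arc gave 2 (Gjb6 and Col23a1) with normexp, with quantile normalization, with only probes well above background on every array, with the floor and with eBayes trend and robust, and 1 (Gjb6) with the percentile over probes well above background on all arrays and with the mean of the probes. Centring on the neuron genes gave 6 in VMH against Arc, 11 in VMH against the mean of the others and 3 for Arc against the other nuclei, where normexp gave 1 (Vim). With 1 array left out the counts lay between 0 and 1 in DMH against VMH, DMH against Arc, VMH against Arc and Arc against the other nuclei, the 1 being Vim without DMH replicate 2.

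Centring on the neuron genes moved the median of all genes from -0.04 to 0.52 in DMH against VMH, from -0.03 to -0.67 in VMH against Arc and from 0.01 to -0.60 in VMH against the mean of the others. It changed the split of all genes called in DMH against VMH from 121 higher and 216 lower to 3066 higher and 183 lower, and in VMH against Arc from 181 higher and 87 lower to 259 higher and 7148 lower. Under it the difference of Mbp in VMH turned from 0.59 to -0.014 and that of Cga in DMH from -0.11 to 0.13. Centring takes 1 value, set by the mean of the neuron genes, off every gene of an array. The differences of all genes in a comparison therefore move together under it. Why counts changed under the other settings was not tested.

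Deviations of samples from the mean of their nucleus cancel out within it. Their correlations therefore depend on each other, and the 2 Arc arrays mirror one another. Samples with the same replicate number had deviations that correlated at 0.073 to 0.185 and those of other numbers at -0.125 to 0.014. All 8 arrays correlated best with their own number, which is not 8 independent observations. That is a hint from the data, not the design, so the replicate block, which left 28 genes higher and 35 lower in DMH against the mean of the others where 101 and 130 were called without it, was not used. An alternative added after seeing the data, with every kept probe as a feature, gave the same 2 members. Dim spots limit Sox9, Mog, Mal, C1qc, P2ry12, Vim and Nes.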
